A study of Rattus norvegicus with 2 samples.

Results

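The glycolytic enzymes Aldoa, Aldoc, Tpi1, Gapdh, Pgk1, Pgam1, Eno1, Eno2, Pkm and Ldha were looked up by gene symbol in the mRNA profiles of cultured rat cortical neurons with and without knockdown of PIWIL1, a PIWI protein known mainly from germ cells. Of these 10 genes, 8 had a value, out of 9894 genes listed in the whole series, and Aldoa and Eno1 are not analysed here. The files list them as NM_012497 (Aldoc), NM_022922 (Tpi1), NM_017008 (Gapdh), NM_053291 (Pgk1), NM_053290 (Pgam1), NM_139325 (Eno2), NM_053297 (Pkm) and NM_017025 (Ldha). Gapdh was set against the other enzymes because the study normalised its qPCR to GAPDH. The cells were dissociated from the cortex of Sprague-Dawley rats at E16, electroporated with a plasmid and cultured for 48 h in Neurobasal medium with serum and B27. The labels name a control plasmid and an RNAi plasmid, and in the study these carried a scrambled siRNA or an siRNA against PIWIL1 in pSuper. Which of the siRNAs was used here is not given in the sources used. Each condition was 1 library, so no difference below has a replicate check. For these cultures no sort of electroporated cells is named in the labels. No value was found under the symbol Piwil1, so the knockdown was not checked in these libraries.

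Glycolysis splits glucose into pyruvate in the cytosol and yields ATP and NADH. Aldolases (Aldoa, Aldoc) cleave the hexose into triose phosphates, Tpi1 interconverts the trioses, and Gapdh oxidises glyceraldehyde phosphate with NAD+. Pgk1 then makes ATP, Pgam1 moves the phosphate group, enolases (Eno1, Eno2) remove water, Pkm makes ATP and pyruvate, and Ldha turns pyruvate into lactate and restores NAD+. In the brain Eno2 is the enolase of neurons and Aldoc the aldolase enriched in astrocytes. Gapdh is transcribed in nearly every cell and is widely used as a reference in qPCR and in blots.

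In the tag profiling used for both libraries, a transcript is cut at CATG and read as a 21-base tag that begins with that site. The tables number the sites of a gene from its 3′ end, so that site 1 is the CATG nearest to that end. The tags below carried most of the copies of each enzyme or set the direction of a result, and they are shown as the files list them, with the CATG of the cut in capitals.
Gapdh, site 1: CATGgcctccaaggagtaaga
Gapdh, site 2: CATGgcctacatggcctccaa
Gapdh, site 3: CATGccgcctggagaaacctg
Gapdh, site 4: CATGgccttccgtgttcctac
Pgk1, site 1: CATGgaaataacggtgagatt
Pgk1, site 2: CATGacagcatggaaataacg
Pgk1, site 3: CATGtgagcactgggggcggc
Pkm, site 9: CATGctgtccggagaaacagc
Pkm, site 3: CATGatgatcctctggagctt
Tpi1, site 2: CATGcttctgataacatcatc
Ldha, site 1: CATGccaaggaaaacaccaaa
Aldoc, site 1: CATGtctgaggatggagaaac
Pgam1, site 2: CATGtccaaggttttgtcttt
Eno2, site 1: CATGaggattgaagaggagct
Eno2, site 2: CATGcagatctgaacgtctgg
The last 12 bases of the site 2 tag of Gapdh are the opening 12 bases of its site 1 tag, so these sites lie close together on the transcript. The site 2 and site 1 tags of Pgk1 share 13 bases in the same way.

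The control library held 1947600 tag copies on 9496 genes, 57.5% of 3386865 clean tags, and the RNAi library 1865913 copies on 9297 genes, 56.5% of 3303360 clean tags. TPM here is tag copies scaled to the clean tags of the library, with no division by gene length. The lowest copy number of a listed tag was 2, and 3 copies correspond to 0.886 TPM in the control library and 0.908 TPM in the RNAi library. Log2 ratios are RNAi over control in TPM. Their 95% intervals are exact (Clopper-Pearson), treat each copy as a separate draw and cover counting error only. Copies made by amplification cannot be told from separate molecules, so the intervals may be too narrow. For each gene, its copies and the remaining copies on genes in both libraries entered Fisher's exact test (two-sided), and p-values were adjusted by Benjamini-Hochberg over 9894 genes (FDR). This test compares these libraries and not the conditions. Genes with an FDR up to 0.05 and a log2 ratio of at least 0.58, or at most -0.58, were called upregulated or downregulated. Across the 8899 genes with tags in each library the median was -0.085.

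Gapdh carried more tag copies than any other of the 8 enzymes in both libraries. It had 4213 copies in the control library and 4891 in the RNAi library, or 1244 and 1481 TPM, and ranked 45 and 33 by copies among all listed genes. Ldha followed with 3203 and 2831 copies, or 946 and 857 TPM. Pgk1 had 1288 and 1444 copies (380 and 437 TPM) and Pkm 1184 and 940 (350 and 285 TPM). Tpi1 had 678 and 993 copies (200 and 301 TPM), and Pgam1 had 392 and 361 (116 and 109 TPM). Aldoc had 359 and 407 copies (106 and 123 TPM). Eno2 had only 48 and 61 copies, or 14.2 and 18.5 TPM, so that the neuronal enolase was by far the least copied of the 8. These are levels of tags, which depend on the CATG sites of a gene as well as on its transcripts, and they are not scaled by length. Fewer cells of a type and less RNA per cell cannot be told apart in them.

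**Figure D1:**
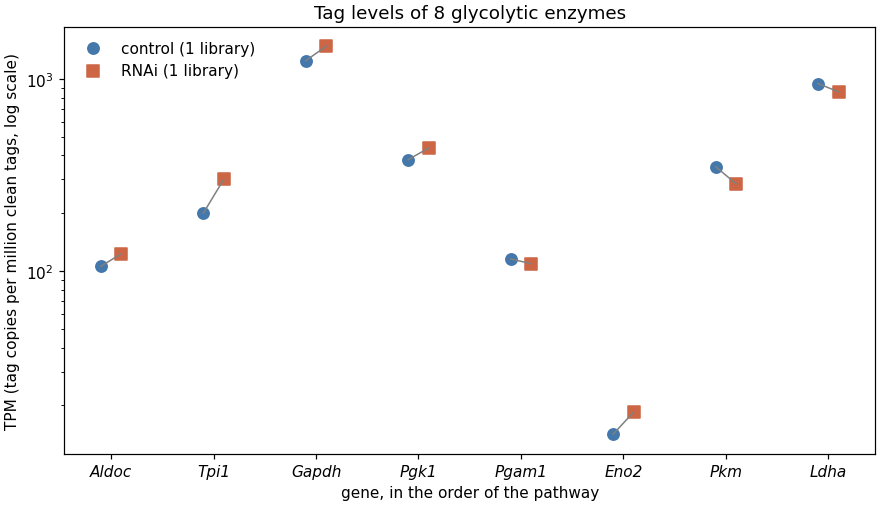
Level of each enzyme in TPM (log axis) in the control library (circles) and the RNAi library (squares), 1 library each, with the genes in the order of the pathway. Gapdh is highest in both, at 1244 and 1481 TPM, and the lines for Pgam1, Pkm and Ldha slope down while the other 5 slope up.

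In the control library the order by copies was Gapdh, Ldha, Pgk1, Pkm, Tpi1, Pgam1, Aldoc and Eno2. Of the neighbours in that order, Pgam1 and Aldoc did not differ beyond counting error (ratio 1.09, 95% interval 0.944 to 1.26), and Pgk1 and Pkm did so only narrowly (1.09, 1.0045 to 1.18). In the RNAi library Tpi1 stood above Pkm and Aldoc above Pgam1, and neither pair differed beyond counting error (1.06, 0.965 to 1.16, and 1.13, 0.976 to 1.30). The lead of Gapdh over Ldha was 1.32-fold (1.26 to 1.38) in the control library and 1.73-fold (1.65 to 1.81) in the RNAi library.

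Between the libraries the enzymes did not move together. In the RNAi library 5 of the 8 were higher and 3 lower, with a median log2 ratio of 0.21. Of all 9894 genes, 4252 were higher and 5642 lower. Only Tpi1 was called, as upregulated, where 2.96% of all genes were called up, and no enzyme was called downregulated, where 5.97% were. When a coefficient of variation of 0.1 between cultures was assumed in edgeR's exact test, none of the 8 passed, and the FDR was 0.107 for Tpi1 and 0.641 for Gapdh. By the FDR alone 3 of the 8 were higher (Tpi1, Gapdh and Pgk1) and 2 lower (Pkm and Ldha), where 7.14% of all genes were higher and 9.53% lower. These 5 enzymes are also those with a sum of at least 1000 copies over the libraries. Among the 733 genes of that depth, 34.7% were higher and 29.3% lower at the same FDR, so that passing it is common for deeply read genes. With the threshold on the ratio as well, 4.09% were called up and 6.82% down. By the log2 ratio alone, 12.9% of all genes were at 0.58 or more and 22.5% at -0.58 or less.

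Tpi1, which interconverts the triose phosphates, rose from 678 to 993 copies. Its log2 ratio was 0.59 (0.44 to 0.73; Fisher's exact test, FDR 5.10e-16) and lay just past the threshold of 0.58. Gapdh itself was 1.19-fold higher, with a log2 ratio of 0.25 (0.19 to 0.31; Fisher's exact test, FDR 3.76e-18), and did not reach that threshold. Among the 733 genes with at least 1000 copies, whose quartiles were -0.24 and 0.23, 77.1% had a lower log2 ratio than Gapdh. Pgk1, which uses the product of Gapdh to make ATP, was at 0.20 (0.09 to 0.31, FDR 0.000564 by Fisher's exact test). The intervals of Gapdh and Pgk1 as deposited overlapped, and that of Tpi1 lay above both. This order changed with the treatment of tags. Corrected for the tag end, Gapdh was at 0.51, Tpi1 at 0.48 and Pgk1 at 0.25, and with the most copied tag alone Tpi1 was at 0.60, Pgk1 at 0.44 and Gapdh at 0.09.

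Pkm and Ldha, which act at the end of the pathway, were on the other side of 0 as deposited. Ldhb, another lactate dehydrogenase subunit described below, was not, at 0.42, and Pkm turned to 0.21 with its most copied tag alone. Pkm, the pyruvate kinase of brain, had a log2 ratio of -0.30 (-0.42 to -0.17, FDR 0.000255 by Fisher's exact test). Ldha, which makes lactate, had -0.14 (-0.22 to -0.07, FDR 0.0147 by Fisher's exact test). With the libraries scaled by edgeR's TMM factors the FDR of Ldha was 0.461, and with DESeq2's size factors it was 0.338. With copies corrected for the tag end Ldha was at -0.34 (Fisher's exact test, FDR 4.45e-14). As deposited, neither enzyme reached -0.58, while Pkm read from its site 1 tags alone, with 45 and 24 copies, was at -0.87 (Fisher's exact test, FDR 0.0810).

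The remaining enzymes, read at lower depth, did not pass the FDR as deposited. Aldoc had a log2 ratio of 0.22 (0.01 to 0.43; Fisher's exact test, FDR 0.0996), though with TMM factors the FDR was 0.0219. Pgam1 had -0.08 (-0.29 to 0.13), which became 0.012 with TMM factors and 0.0022 with DESeq2's size factors. Eno2 had 0.38 with an interval from -0.19 to 0.96, wide because it rests on 109 copies in all. With tags of fewer than 20 copies left out, Eno2 had 24 and 44 copies and was called upregulated (0.91; Fisher's exact test, FDR 0.0443). That limit kept its site 2 tag (2 and 19 copies) only through the RNAi library. Its site 6 tag, which went the other way (12 and 7 copies), fell just short of the limit. The call therefore rests on the filter. The plot of log2 ratios sets the 8 enzymes beside other enzymes of the pathway and beside genes used as qPCR references.

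**Figure D2:**
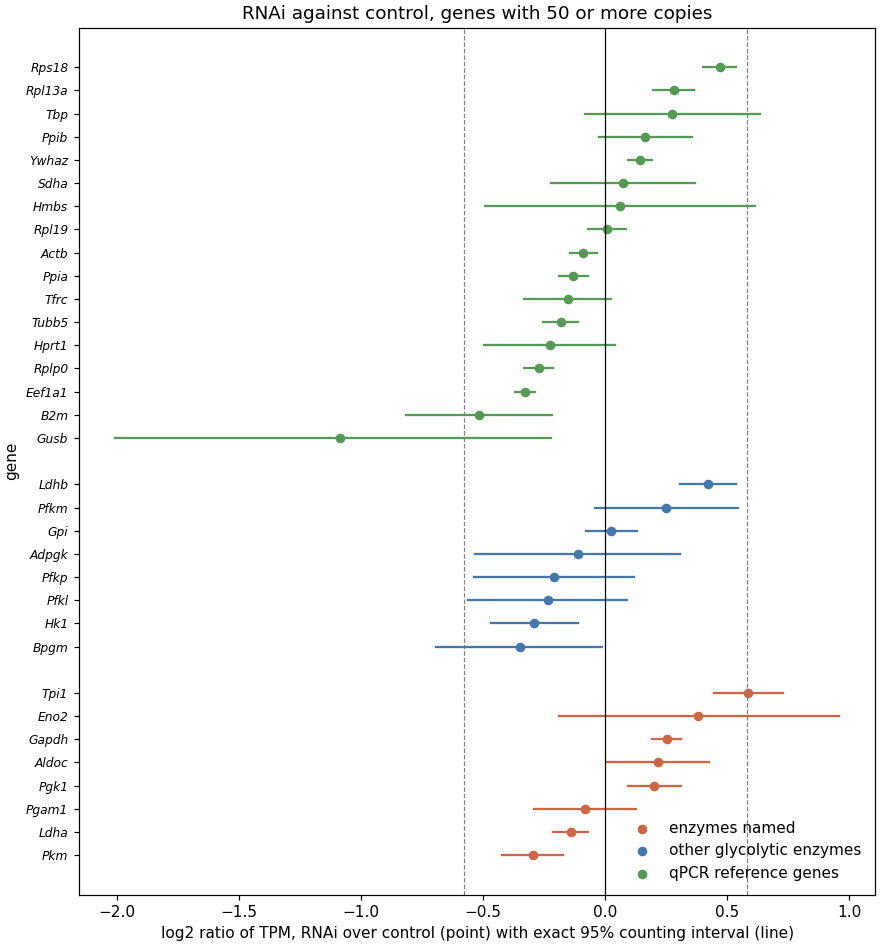
Log2 ratio of TPM (RNAi over control) with its exact 95% counting interval, for the enzymes named here (orange), other glycolytic enzymes (blue) and qPCR reference genes (green) with a summed total of at least 50 copies, except 1 reference gene that is not drawn. Dashed lines mark 0.58 and -0.58. Of the 8 enzymes only Tpi1 (0.59) is past a line, and Gapdh (0.25) lies to the right of 0 while Pkm (-0.30) and Ldha (-0.14) lie to the left.

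Within a library the ratio of Gapdh to another enzyme needs no scaling between libraries. Gapdh took 37.1% (36.2 to 38.0) of the 11365 copies of the 8 enzymes in the control library and 41.0% (40.1 to 41.9) of the 11928 copies in the RNAi library (exact binomial intervals). The other 7 enzymes together had 7152 and 7037 copies, or 2112 and 2130 TPM, a log2 ratio of 0.013. Relative to their sum Gapdh was higher in the RNAi library by 0.24 on the log2 scale (conditional odds ratio, exact 95% interval 0.16 to 0.32). Without Ldha in that sum, the value was 0.12 (0.04 to 0.21), and with the most copied tag of each gene alone it was -0.036 (-0.14 to 0.07).

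The sum hides enzymes that went opposite ways relative to Gapdh. Per copy of Gapdh, Pkm was at -0.55 (-0.69 to -0.41), or 0.684-fold. Ldha was at -0.39 (-0.49 to -0.30) and Pgam1 at -0.33 (-0.55 to -0.12). Tpi1 was higher per copy of Gapdh, by 0.34 (0.18 to 0.49). The intervals of Pgk1 (-0.05, -0.18 to 0.07), Aldoc (-0.03, -0.25 to 0.18) and Eno2 (0.13, -0.44 to 0.71) included 0. Thus, as deposited, 4 of 7 enzymes differed in their ratio to Gapdh beyond counting error, 3 of them lower and 1 higher. A ratio below that of Gapdh was common, as 77.1% of the 733 genes with at least 1000 copies had one. The directions also depended on the tags. Corrected for the tag end, Tpi1 (0.48) lay below Gapdh (0.51), and with the most copied tag alone Pkm (0.21) lay above Gapdh (0.09).

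The tags of Gapdh did not share 1 ratio. Its most copied tag, at site 3, went from 2170 to 2250 copies, a log2 ratio of 0.09 (0.003 to 0.17). The tag at site 1 went from 1269 to 1665 copies (0.43, 0.32 to 0.53) and the overlapping tag at site 2 from 639 to 802 (0.36, 0.21 to 0.52). The tag at site 4 had 120 copies in each library. As deposited, the higher count of the gene in the RNAi library thus lay on the overlapping pair of sites near the 3′ end. Against the site 3 tag, the site 1 tag was higher by 0.34 (0.20 to 0.48) and the site 2 tag by 0.28 (0.10 to 0.45), while the site 4 tag was at -0.05 (-0.44 to 0.34). The share of Gapdh copies at site 1 was 30.3% (28.9 to 31.7) in the control library and 34.5% (33.2 to 35.9) in the RNAi library. Over all genes that share was 62.7% and 64.6%.

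Tag ratios in these libraries also varied with the bases at the tag end. Relative to all tags with at least 20 copies, tags that end in TG, as the site 3 tag of Gapdh does, had a median log2 ratio of -0.59. Tags that end in GA (site 1) had -0.03, in AA (site 2) 0.23 and in AC (site 4) 0.05. Relative to these medians the order of the Gapdh tags was another one, with site 3 highest at 0.68, then site 1 at 0.46, site 2 at 0.13 and site 4 at -0.010. With each tag's copies corrected for the median of its end, Gapdh was at 0.51 in place of 0.25, and with the most copied tag alone it was at 0.09 (FDR 0.199 by Fisher's exact test). The size of the difference in Gapdh therefore ran from 0.09 to 0.51 with the choice of tags, above 0 in each case, and in none of the 18 alternatives was Gapdh called.

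Gapdh also had 20 tags with few copies that differ by a single base from an abundant tag at the same site. They held 15 copies in the control library, 0.356% of the gene, and 54 in the RNAi library, or 1.10%. Over all genes such variants took 0.926% and 1.25% of the copies. Gene entries close to Gapdh were read rarely. An entry described as similar to Gapdh (NM_001037190) had 13 and 9 copies, the sperm enzyme Gapdhs 3 and 2, and a pseudogene (Gapdh-ps1) had 2 copies in the control library and was not listed in the RNAi library. The files list each tag under 1 gene, and how tags common to Gapdh and its copies were assigned is not given in the sources used here.

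The other enzymes had between 2 and 12 tags with at least 20 copies, and among all 43 such tags of the 8 enzymes 18 were higher and 25 lower in the RNAi library. The share of higher and lower tags over all genes is not given here, so the tag counts below have no background. By gene, 4252 were higher and 5642 lower in the whole series. In Tpi1 all 3 tags were higher. The site 2 tag held 89.4% of its copies in the control library and went from 606 to 896 (0.60, 0.45 to 0.75), and the tag at site 1 went from 32 to 53 (0.76, 0.10 to 1.44). A tag of Tpi1 at site 4 differs by 1 base from a tag listed under Tpi1l1, an entry named as Tpi1-like, which had 22 and 19 copies. In Ldha all 5 tags were lower. Its site 1 tag went from 2496 to 2221 copies (-0.13, -0.22 to -0.05), with upstream tags between -0.80 and -0.04.

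In Pgk1 the site 1 tag differed from the sum of the others. It went from 739 to 978 copies (0.44, 0.30 to 0.58), whereas its other 8 tags together went from 542 to 459, a log2 ratio of -0.20. The site 1 tag against the others was higher by 0.64 (0.41 to 0.87). The overlapping tag at site 2, with 191 and 184 copies, was at -0.02, and the tag at site 3 went from 158 to 103 (-0.58, -0.95 to -0.21). The share of Pgk1 copies at site 1 was 57.4% (54.6 to 60.1) in the control library and 68.2% (65.7 to 70.6) in the RNAi library. So the higher count of Pgk1 rested on its 3′ tag, and 6 of its 9 tags were lower.

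In Pkm most tags were lower. Of its 12 tags 11 were lower in the RNAi library, 5 of them with intervals below 0. The exception was its most copied tag, at site 9, which went from 289 to 325 copies (0.21, -0.03 to 0.44). The other 11 tags together went from 857 to 595 copies, a log2 ratio of -0.49, and the site 9 tag stood above them by 0.70 (0.42 to 0.98). Relative to the median of its end the site 9 tag was at -0.020. The tag at site 3 went from 322 to 258 copies (-0.28, -0.53 to -0.04). Most copies of Pkm lay away from the 3′ end, with 3.80% at site 1 in the control library and 2.55% in the RNAi library.

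In the enzymes read at lower depth, tags were few. The site 1 tag of Aldoc held 67.7% of its copies in the control library and went from 243 to 274 (0.21, -0.05 to 0.46). Another Aldoc tag, at site 5, went from 10 to 26 copies (1.41, 0.31 to 2.63). The site 2 tag of Pgam1 had 315 and 287 copies (-0.10, -0.33 to 0.14), and no copies of Pgam1 were listed at site 1. Eno2 had 22 and 25 copies at site 1 (0.22, -0.67 to 1.12), while its site 2 tag went from 2 to 19 (3.28, 1.23 to 6.43), so the higher count of Eno2 in the RNAi library lay on that tag. None of the tags of the 8 enzymes ended in a run of 8 or more A.

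**Figure D3:**
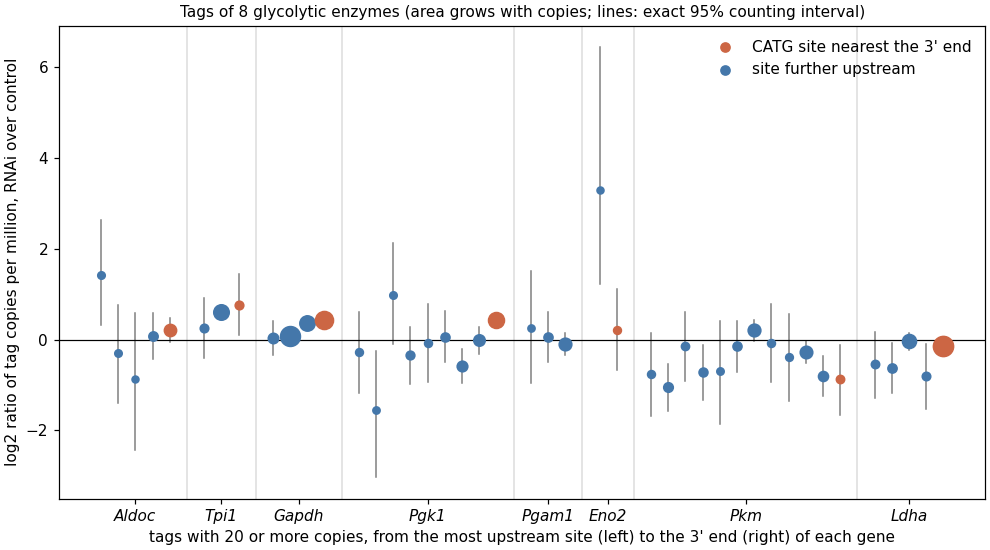
Log2 ratio of TPM for single tags, RNAi over control, for those with a summed total of at least 20 copies, with exact 95% counting intervals. Tags of a gene run from upstream (left) to the 3′ end (right), symbol area grows with copies, and orange marks site 1. The site 1 tags of Gapdh (0.43) and Pgk1 (0.44) lie above the large site 3 tag of Gapdh (0.09) and most upstream tags of Pgk1, and 11 of 12 tags of Pkm lie below 0.

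Other glycolytic enzymes were read from a list of 19 genes, of which 12 had a value. None was called in either direction, and their median log2 ratio was -0.16. By the FDR alone Ldhb was higher and Hk1 lower. Ldhb, the lactate dehydrogenase subunit that favours the oxidation of lactate, had 1060 copies in the control library and 1384 in the RNAi library (0.42, 0.30 to 0.54, FDR 1.30e-12 by Fisher's exact test). Ldha made up 75.1% (73.8 to 76.4) of the copies of both subunits in the control library and 67.2% (65.7 to 68.6) in the RNAi library. Ldhb per copy of Ldha was higher by 0.56 (0.42 to 0.70). The higher count of Ldhb lay on 1 tag at site 1, with 96.0% of its copies in the control library and 97.6% in the RNAi library. Of its 3 tags with at least 20 copies, the other 2 were lower. Hk1, the main hexokinase of brain, had 583 and 465 copies (-0.29, -0.47 to -0.11, FDR 0.0239 by Fisher's exact test).
Gpi, which follows hexokinase in the pathway, had 1460 and 1449 copies, a log2 ratio of 0.03 (-0.08 to 0.13). Its tags differed, as 1 site 1 tag went from 820 to 588 copies, another site 1 tag from 178 to 267 and the site 2 tag from 282 to 420. The first of these ends in GT, and relative to the median of their ends the 3 tags were all above 0, at 0.15, 0.25 and 0.75. The phosphofructokinases, which commit the sugar to glycolysis, had intervals that included 0: Pfkl was at -0.24, Pfkm at 0.25 and Pfkp at -0.21. Bpgm, a mutase that makes bisphosphoglycerate, had -0.35 (170 and 130 copies) and Adpgk, an ADP-dependent glucokinase, had -0.11 (103 and 93 copies). Hk2 and Hk3 were not listed in the control library and had 2 and 4 copies in the RNAi library.

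Among 12 regulators and transporters of glycolysis, 10 had a value, with a median log2 ratio of 0.04. Called upregulated was 1, where 2.96% of all genes were, and none was called downregulated, where 5.97% were. Pfkfb2, which makes the activator of phosphofructokinase, rose from 43 to 71 copies (0.76, 0.19 to 1.34, FDR 0.0324 by Fisher's exact test). With copies corrected for the tag end its FDR was 0.0765. Mpc1, a subunit of the mitochondrial pyruvate carrier, had 812 and 1134 copies (0.52, 0.39 to 0.65; Fisher's exact test, FDR 8.67e-15). As deposited it did not reach the threshold, and its partner Mpc2 had 223 and 224 copies (0.04). With TMM factors or with DESeq2's size factors, 2 genes of this list were called upregulated. The glucose transporter Slc2a1 had 52 and 42 copies (-0.27, -0.89 to 0.34).
Of 11 genes of the pyruvate dehydrogenase complex and its kinases and phosphatases, 9 had a value. Of these, 7 were lower in the RNAi library, where 5642 of all 9894 genes were. Called was 1, as downregulated, where 5.97% of all genes were. The subunits of the E1 enzyme, which decarboxylates pyruvate, were both lower. Pdhb fell from 152 to 86 copies (-0.79, -1.18 to -0.39; Fisher's exact test, FDR 0.00116). Pdha1 had 355 and 233 (-0.57, -0.82 to -0.33, FDR 0.000107 by Fisher's exact test), just short of the threshold. The most copied tags of both end in GT, an end with a median of -0.59. With the correction for the tag end Pdhb was at -0.19 (FDR 0.724) and Pdha1 at -0.31 (FDR 0.140 by Fisher's exact test). The E2 subunit Dlat had 144 and 152 copies (0.11, -0.22 to 0.45).

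Genes controlled by the hypoxia factor HIF-1 share regulation with many glycolytic enzymes. Of 20 such genes outside glycolysis, including the factor and its partners, 17 had a value, with a median log2 ratio of -0.17. Of these, 5 were higher and 12 lower, where 4252 and 5642 of all 9894 genes were. Called were 1 as upregulated and 2 as downregulated, where 2.96% of all genes were called up and 5.97% down. Bnip3, a mitophagy receptor, fell from 193 to 85 copies (-1.15, FDR 1.91e-08 by Fisher's exact test) and Ndrg1, a stress response gene, from 196 to 90 (-1.09, FDR 6.82e-08 by Fisher's exact test). Both were still called after the correction for the tag end, at -0.74 and -0.68. Ddit4, an inhibitor of mTOR, rose from 642 to 1117 copies (0.84, FDR 1.81e-32 by Fisher's exact test). It was at 0.42 and no longer called after that correction. Its most copied tag ends in a run of 6 A, an end with a median of 0.44. The most copied genes of the list, Bnip3l, Higd1a and Ddit4, thus included 1 called gene, as Bnip3l had 994 and 1073 copies (0.15) and Higd1a 829 and 736 (-0.14).

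Gapdh was then set among 18 genes used as qPCR references that had a value, from a list of 20. Their log2 ratios ran from -1.09 for Gusb, with 37 and 17 copies, to 0.47 for Rps18, a ribosomal protein gene with 3200 and 4319 copies. None was called. Their median was -0.04, and 10 of the 18 lay closer to 0 than Gapdh. Of the most copied references, Eef1a1, an elongation factor, had 10584 and 8220 copies (-0.33), Ywhaz, a 14-3-3 protein, 6347 and 6826 (0.14), and Actb, beta actin, 5769 and 5289 (-0.09).

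The choice of reference changed the size of the difference in Map1b, the microtubule-associated protein gene whose mRNA decay the study followed by qPCR. Map1b had 3392 copies in the control library and 1758 in the RNAi library, a log2 ratio of -0.91 in TPM. Per copy of Gapdh it went from 0.805 to 0.359, a log2 ratio of -1.16 (-1.27 to -1.06). Because Gapdh itself was higher in the RNAi library (0.25), Map1b was necessarily lower by more against Gapdh than against all clean tags. With Actb as the reference the value was -0.82 (-0.92 to -0.72), with Eef1a1 -0.58 (-0.68 to -0.49) and with Rps18 -1.38 (-1.49 to -1.27). Over the 18 references the median was -0.87, and for 17 of them the interval lay below 0, the exception being Gusb (0.17, -0.70 to 1.10). Among the enzymes it ran from -1.50 with Tpi1 to -0.62 with Pkm. With the most copied tag of each gene alone, Map1b per copy of Gapdh was at -0.80 (-0.95 to -0.65). That value is not to be compared with -0.91, which counts all tags of Map1b. The qPCR itself was not analysed here. It expressed mRNA levels relative to those at the start of the transcription block, so the ratios above are a different measure.

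**Figure D4:**
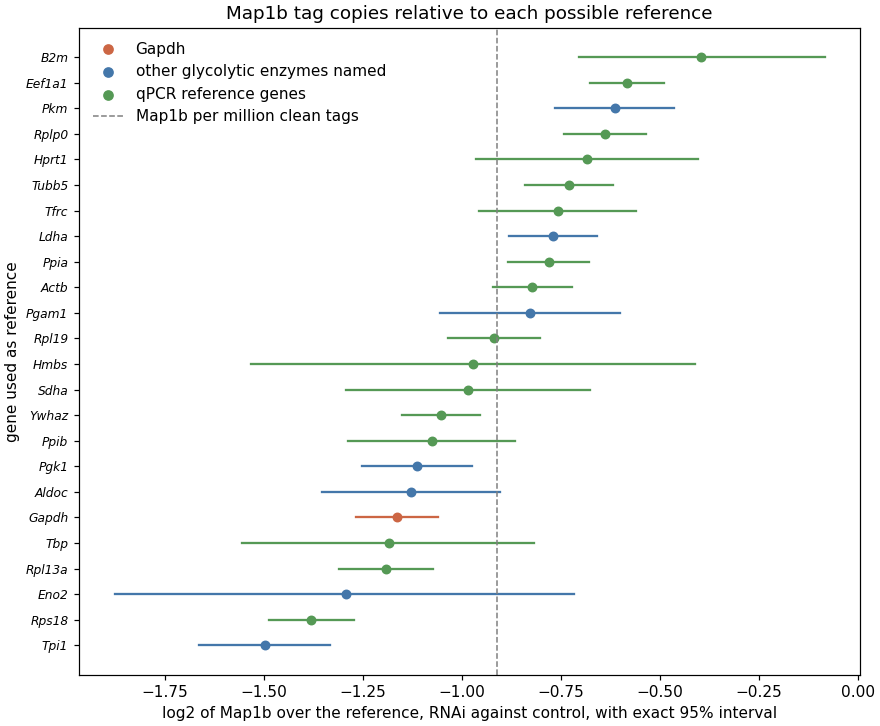
Log2 of Map1b tag copies relative to each reference gene, RNAi against control, with exact 95% intervals, for Gapdh (orange), the other enzymes (blue) and qPCR reference genes (green). Gusb, with 37 and 17 copies, and 1 other reference gene are not drawn. The dashed line is Map1b in TPM (-0.91), and Gapdh (-1.16) lies to its left while Pkm (-0.62) lies to its right.

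Markers of cell types were read as a check of the labelled cells. All 12 neuron markers were listed, and they summed to 4673 TPM in the control library and 4086 in the RNAi library. Of these, 8 were lower and 4 higher, where 5642 of all 9894 genes were lower and 4252 higher. Called downregulated were 2 (Snap25 and Elavl3), where 5.97% of all genes were, and Syt1 was at 0 in the control library. At an assumed coefficient of variation of 0.1 no neuron marker was called, and with the correction for the tag end 1 was. Stmn2 went from 2210 to 1719 TPM and Gap43 from 788 to 1072 TPM. Of 9 astrocyte markers 6 had a value, summing to 269 and 247 TPM, with none called. Of 10 progenitor markers 8 had a value, with none called, 7 lower, and a sum of 1039 and 1320 TPM, in which Vim (790 and 1127 TPM) outweighs the rest. Of 15 markers of other cells 11 had a value. They summed to 1295 and 2655 TPM with Cd68 and to 475 and 463 TPM without it, and 99.3% of the copies of Cd68 lay on tags ending in 8 or more A. Olig2 was at 0 in the RNAi library. The part of these differences in the values of Aldoc, Eno2 and the other enzymes was not tested.

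The alternative ways of counting and scaling moved single enzymes to different degrees. Aldoc kept to between 0.19 and 0.31 over 18 alternatives, while Pkm ran from -0.87 with its site 1 tags to 0.21 with its most copied tag. Gapdh, Tpi1, Pgk1, Aldoc, Eno2 and Ldha kept their direction in all 18. Alternatives that change only the test or a threshold leave the ratios as they are, so they could not change a direction. The same holds for leaving out genes with few copies, summing copies per symbol and leaving out tags with long A ends. Tpi1 stayed called in 12 of 18, and Eno2 was called in 1.

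**Figure D5:**
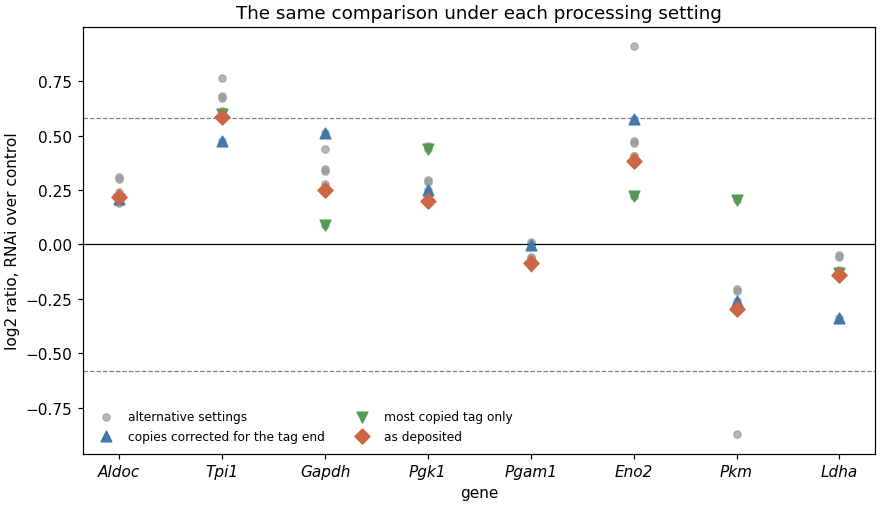
Log2 ratio of each enzyme, RNAi over control, as deposited (diamonds), corrected for the tag end (upward triangles), from the most copied tag only (downward triangles) and under the other alternatives (grey). Dashed lines mark 0.58 and -0.58. Gapdh spans 0.09 to 0.51 and stays above 0, and Pkm has values on both sides of 0.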

How the data were processed

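For each library the authors deposited 1 table with the tag count of every gene (the sum of its tags' copy numbers), its TPM (copies scaled to clean tags) and every tag with its site and copies. The submitters' processing notes name the build rn4. The program and reference that matched tags to genes are not given in the sources used here. Clean tag totals were recovered from TPM. Symbols came from RefSeq (assembly GRCr8 table, names only, no coordinates) for 9331 of 9894 genes (94.3%). The enzymes and lists were chosen with earlier results of these data known. The enzymes were named, with other glycolytic enzymes of at least 50 copies, and in other lists the called genes (up to 4) and the most copied; other names, such as those of markers and of entries close to Gapdh, were chosen after their values were seen.

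Genes were compared by Fisher's exact test on the counts, and ratios within libraries by conditional odds ratios. Since each condition had 1 library, edgeR's quasi-likelihood test could not be fitted. The median ratio of each tag end (last 2 bases, or a run of 3 to 13 A) was estimated on tags of other genes with at least 20 copies and 0.5 copies added. Other alternatives used edgeR's TMM factors (1.02 and 0.976), DESeq2's size factors (1.04 and 0.959) and edgeR's exact test with assumed coefficients of variation. Scripts were tested on simulated data. Python 3.11.15, NumPy 2.4.6, pandas 2.3.3, SciPy 1.17.1, Matplotlib 3.10.9, R 4.3.3, edgeR 4.0.16 and DESeq2 1.42.0 were used. Of the 18 reference genes with a value, 1 is counted but not reported by name here.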

Additional observations from a re-analysis of the deposited data

How the results depend on the processing

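No paired analysis was possible because each condition had 1 library. The number of upregulated enzymes was 1 as deposited (Tpi1) and 0 with edgeR's exact test at an assumed coefficient of variation of 0.1 (FDR of Tpi1 0.107), 0.2 or 0.4, with copies corrected for the tag end (Tpi1 at 0.48) and with a log2 threshold of 1. In alternatives chosen after seeing the data it was 0 with site 1 tags only (FDR of Tpi1 0.107), where Pgam1 had no copies. It was 2 with tags of at least 20 copies only (Tpi1 and Eno2), where the call of Eno2 rests on the filter. The number of downregulated enzymes was 0 in each of these and under the other scalings, filters and tag choices. Over all genes, 293 up and 591 down as deposited became 114 and 170 at a coefficient of 0.1, 15 and 2 at 0.2, 0 and 0 at 0.4 (where 114 genes had an unadjusted p under 0.05), 181 and 370 with the correction, 146 and 262 at a log2 threshold of 1, 163 and 257 at an FDR of 0.001, and 1281 and 2227 with no test. With TMM factors they were 398 and 459, and with DESeq2's size factors 382 and 475. Gapdh against the other 7 enzymes (0.24) was 0.57 with the correction and -0.036 (-0.14 to 0.07) with the most copied tags only. In alternatives also chosen after seeing the data it was 0.40 with site 1 tags only, which leaves out Pgam1, and 0.12 without Ldha. Map1b against Gapdh (-1.16) was -0.80 with the most copied tags. Pgam1 turned to 0.012 with TMM factors and to 0.0022 with DESeq2's size factors, and Pkm to 0.21 with its most copied tag. The median of the 8 enzymes was between 0.21 and 0.30 in the 10 alternatives in which it was computed. Some of these, such as the sum of copies per symbol, left each ratio of the 8 as deposited, so the median could not move there. Tags with fewer than 20 copies limit Eno2 and the upstream sites, and variation between cultures cannot be seen.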
